A study of Mus musculus with 9 samples.

Results

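Serum response factor (Srf), the myocardin-family coactivators Mkl1, Mkl2 and Myocd, the LIM-only cofactors Fhl1, Fhl2 and Fhl3, and the cysteine-rich LIM proteins Csrp1 and Csrp2 were examined in mouse hepatic stellate cells. The genes were chosen by name, with earlier results of these data known. Every non-control probe was taken whose gene name is 1 of these 9 symbols or, for Mkl1 and Mkl2, their newer symbols Mrtfa and Mrtfb. This gave 14 of the 56605 probes on the array, and 12 of them, for 8 of the 9 genes, were bright enough to be tested. Hepatic stellate cells are the vitamin A-storing cells of the liver that turn into contractile, matrix-producing myofibroblasts when plated on plastic or when the liver is injured.

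Primary cells from C57BL/6 mice aged 10 weeks were isolated by collagenase perfusion and compared in 3 groups of 3 arrays each. The quiescent group (labelled qhsc) received no treatment, and its time of harvest is not given in the labels. The control-siRNA group (nc, labelled as activated cells) was cultured on hard plates for 7 days and then transfected overnight with a negative control siRNA at 5 nM. The Cav1-siRNA group (si-cav) was handled alike but received an siRNA against Cav1, which encodes caveolin-1, the main coat protein of caveolae. Both transfected groups thus share the plating, the days in serum-containing medium and the transfection, and differ from the quiescent group in all of these together. Whether the samples within a group are different animals, different cultures or repeats is not stated, so the tests speak only of the spread among these arrays, which may be technical. RNA was hybridised to single-colour Agilent arrays, and signals are given as log2 of the processed signal relative to the 75th percentile of the same array, so that 0 is the level of a fairly bright spot.

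The labelled states were first checked on markers. Summed levels on the linear scale (75th percentile = 1) of 7 activated stellate markers lay between 5.27 and 14.5 on the quiescent arrays and between 558 and 580 on the control-siRNA arrays. Summed quiescent stellate markers lay between 54.5 and 86.8 on the quiescent arrays, with 9 of 10 above background, and between 8.32 and 9.31 on the control-siRNA arrays. Plin2 was the brightest of these markers, with a mean log2 signal of 5.42 in quiescent and 2.59 in control-siRNA cells. It weighed most in these linear sums. Of the 9 quiescent stellate markers measured, 6 were lower in control-siRNA cells and Hand2 was higher (log2 change 3.78). Reln (0.01) and Lhx2 (-0.38) were not called. The 3 tested Reln probes ran from -9.73 to 0.01 and 2 of them were called lower, so its call depends on the probe. Markers of other liver cells were bright on the quiescent arrays. All 8 hepatocyte markers were above background there, with a summed level of 968 to 1216 against 15.1 to 19.5 in control-siRNA cells. The summed level of 6 sinusoidal endothelial markers was 263 to 431 against 0.322 to 0.381, and that of 5 Kupffer cell and macrophage markers was 139 to 239 against 0.845 to 0.944. On the control-siRNA arrays 3 to 4 of the hepatocyte, 4 to 5 of the endothelial and 3 of the Kupffer cell markers were still above background. The Cav1 probe gave log2 signals of -1.34, -1.12 and -1.09 in control-siRNA cells and -2.87, -2.89 and -3.07 in Cav1-siRNA cells. Its level fell by 1.76 on the log2 scale (limma, SE 0.24, adjusted p = 0.14), all Cav1-siRNA arrays lying below all control-siRNA arrays without the difference passing the threshold.

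SRF is a DNA-binding factor that sits on CArG boxes, short A/T-rich elements flanked by pairs of C and G, and reads 2 kinds of signal through different partners. Myocardin-related transcription factors (Mkl1 and Mkl2) are held in the cytoplasm by monomeric actin and move to the nucleus when actin polymerises, where they switch on cytoskeletal and contractile genes with SRF. Ternary complex factors of the Elk family bind SRF at immediate-early genes after mitogen signalling. FHL2 is a LIM-domain cofactor that binds SRF and many other factors, and CRP proteins are LIM adaptors that link SRF to GATA factors in smooth muscle and bundle actin in the cytoplasm.

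From quiescent to control-siRNA cells, 5 of these genes rose, 2 fell and 1 was not called. Fhl2, Mkl1, Mkl2, Csrp1 and Srf were higher in control-siRNA cells than in quiescent cells, and Fhl1 and Csrp2 were lower. Fhl3 did not pass the test, and Myocd was not bright enough to be tested. The count of 7 of 8 genes called (limma over all 9 arrays, Benjamini-Hochberg over 23965 genes, adjusted p under 0.05) stands beside 68.1% of all tested genes in this comparison, 42.1% higher and 26% lower. All 8 genes were above background on all 9 arrays through the probe that stood for them, so none was measured only where it was high. The groups did not overlap for any of the 8 genes, beside 69.8% of all genes. Taken by probe, 11 of 12 were called, beside 67.9% of all probes. That count includes the dimmer Mkl1 and Mkl2 probes, which were not above background on every quiescent array. They passed the brightness filter only through the transfected groups, where they are higher, so their calls lend no separate support. The median log2 change over the 8 genes was 0.99, and that over all tested genes was 0.32. That all-gene median lay between -0.12 and 0.47 under 4 other background and scaling settings, and the change of each member relative to it is given with its values. Fewer cells of a type and less RNA of that type per cell cannot be told apart in these bulk samples.

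**Figure D1:**
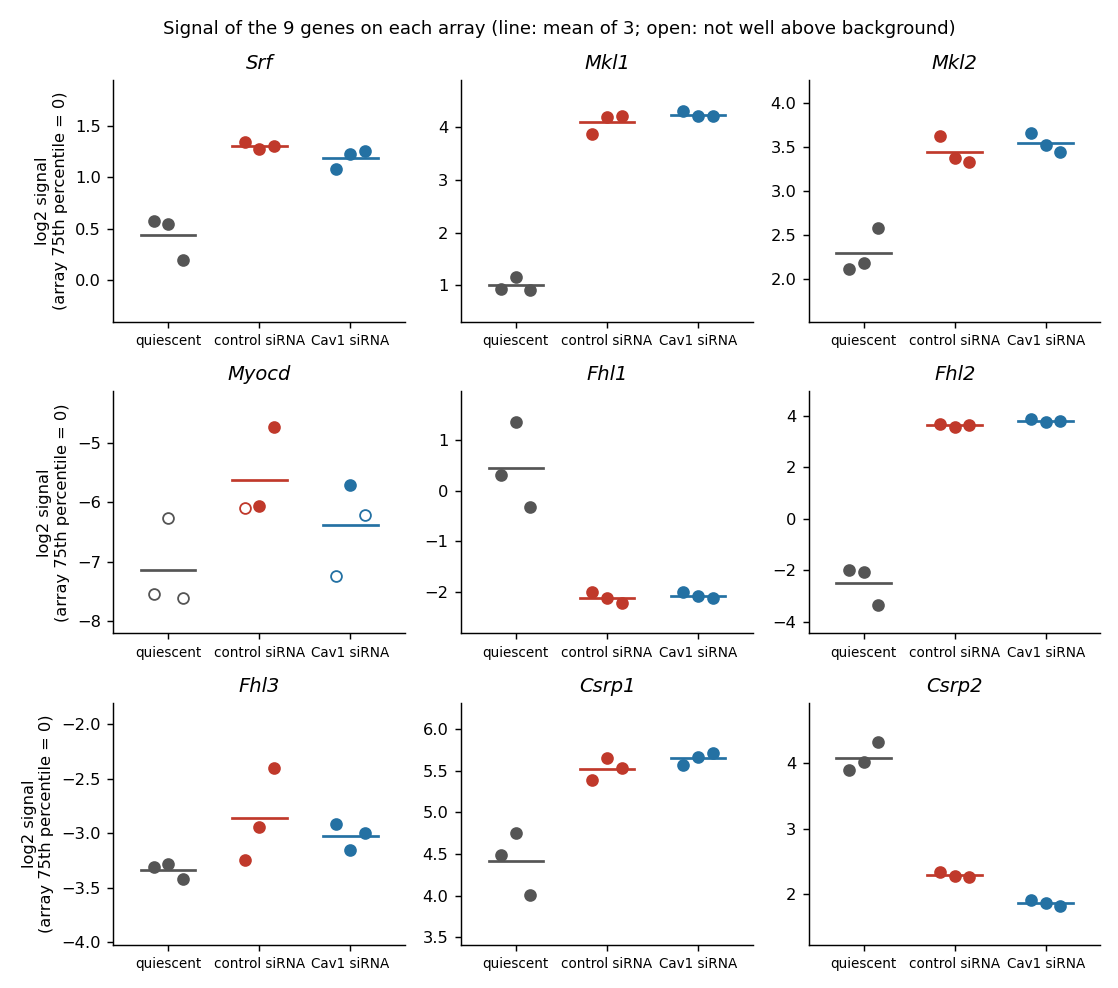
Log2 signal of each gene on every array relative to the array's 75th percentile (vertical axis, own range for each gene), by group (horizontal axis). Points are arrays, lines are means of 3, and open points are not well above background. Fhl1 and Csrp2 sit lower in both transfected groups, and Srf, Mkl1, Mkl2, Fhl2 and Csrp1 sit higher.

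Srf gave log2 signals of 0.58, 0.55 and 0.20 in quiescent cells, 1.35, 1.27 and 1.30 in control-siRNA cells and 1.08, 1.22 and 1.25 in Cav1-siRNA cells. Both transfected groups lay above every quiescent array, and among the quiescent arrays the third was the lowest. The means were 0.44 ± 0.21, 1.31 ± 0.04 and 1.18 ± 0.09 (SD, n = 3). Srf rose 1.82-fold from quiescent to control-siRNA cells (log2 change 0.87, SE 0.15, limma adjusted p = 6.2e-04), or 0.55 above the median of all genes (0.51 to 0.93 under the 4 other scalings). Its single probe lies on chromosome 17, at 46683788 to 46683795 of mm9, the 8 bases that the file lists for it, and no mm9 annotation was used here to place it in the gene.

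The Srf promoter holds CArG boxes, and its own gene is a textbook SRF target. In the RefSeq window of GRCm38.p6, running from 250 bases before to 50 after the start, 2 matches to the CArG box began 82 and 62 bases before the start. The sequence shown, 130 bases on the minus strand of chr17:46556163-46556292, ends just before the start, with the matches in capitals.
Srf: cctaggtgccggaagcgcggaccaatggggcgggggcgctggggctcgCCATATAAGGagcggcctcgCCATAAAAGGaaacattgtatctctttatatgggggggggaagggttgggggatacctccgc

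By their brightest probes, Mkl1 changed more than Mkl2. The brightest Mkl1 probe gave 0.93, 1.16 and 0.91 in quiescent cells, 3.87, 4.19 and 4.20 in control-siRNA cells and 4.29, 4.21 and 4.20 in Cav1-siRNA cells. The quiescent arrays lay close together (SD 0.14) and far below every transfected array. Mkl1 rose 8.50-fold (log2 change 3.09, SE 0.15, limma adjusted p = 1.5e-07), and the change relative to the median of all genes was 2.77 (2.70 to 3.23 under the other scalings). A dimmer Mkl1 probe, above background on 2 of 3 quiescent arrays, gave a log2 change of 2.27 (SE 0.59, adjusted p = 0.0073 over all probes). Both lie on chromosome 15 of mm9, the brighter at 80842711 to 80842753 and the dimmer at 80846691 to 80846750.

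Mkl2, the second actin-regulated coactivator, moved the same way by less. Its brightest probe gave 2.12, 2.18 and 2.58 in quiescent cells, 3.63, 3.38 and 3.34 in control-siRNA cells and 3.67, 3.52 and 3.45 in Cav1-siRNA cells. No quiescent array reached the lowest transfected array. Mkl2 rose 2.22-fold (log2 change 1.15, SE 0.17, limma adjusted p = 2.5e-04), or 0.83 above the median of all genes (0.76 to 1.22 under the other scalings). The 3 dimmer Mkl2 probes were also higher, with log2 changes of 1.44, 1.14 and 3.12. The probes with 1.44 and 3.12 were each above background on 1 of 3 quiescent arrays. The probe with 1.14 was not well above background on any quiescent array and is at least 1.33-fold higher, a bound that takes, for each quiescent array, its dimmest detected probe or the probe itself, whichever was brighter. The 4 probes span chromosome 16 of mm9 from 13332910 to 13417588, share the direction and disagree in size.

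Taken within each array, the ratio of the Mkl1 signal to the Mkl2 signal was 3.82-fold higher in control-siRNA than in quiescent cells, with no overlap between the groups. The ratio uses the brightest probes, and with the mean of the kept probes the log2 changes were 2.68 for Mkl1 and 1.71 for Mkl2. An exact two-sided permutation test gave p = 0.1, the smallest that 3 against 3 arrays allow, and 0.143 after adjustment over the 10 ratio comparisons made. For this and the later ratios no share over all gene pairs was computed. Of single genes 69.8% did not overlap in this comparison.

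Myocd encodes myocardin, the constitutively nuclear coactivator of cardiac and smooth muscle. Its single probe, on chromosome 11 at 64991930 to 64991989 of mm9, gave -7.54, -6.27 and -7.60 in quiescent cells, none above background. It gave -6.10, -6.06 and -4.73 in control-siRNA cells, 2 of 3 above background, and -7.25, -5.71 and -6.21 in Cav1-siRNA cells, 1 of 3 above background. The probe did not pass the brightness filter. Without that filter the fitted log2 change from quiescent to control-siRNA cells was 1.51 (SE 0.55, limma adjusted p = 0.046 over 36952 genes, of which 55.5% were called), so Myocd is then called higher. That size rests on signals at background, and no fold is given.

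**Figure D2:**
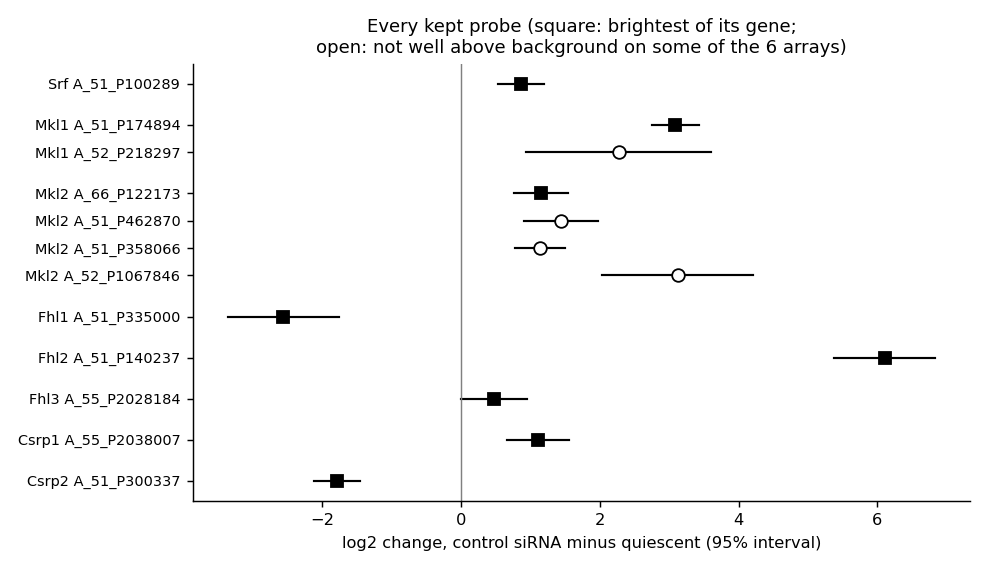
Log2 change from quiescent to control-siRNA cells (horizontal axis) for every tested probe, with 95% intervals. Squares are the brightest probe of each gene, circles are its other probes, and open circles were not well above background on some of the 6 arrays. The 4 Mkl2 probes run from 1.14 to 3.12 and both Mkl1 probes lie above 0.

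Among the LIM-only cofactors, Fhl2 and Fhl1 moved in opposite directions. Fhl2, abundant in heart and known as an MRTF-responsive gene, gave -1.99, -2.07 and -3.36 in quiescent cells, 3.69, 3.57 and 3.65 in control-siRNA cells and 3.88, 3.77 and 3.80 in Cav1-siRNA cells. Every transfected array was far above every quiescent array, and the third quiescent array was the lowest. Fhl2 rose 68.7-fold (log2 change 6.10, SE 0.32, limma adjusted p = 2.8e-07), or 5.78 above the median of all genes (5.18 to 5.84 under the other scalings). The probe lies on chromosome 1 at 43179994 to 43180053 of mm9. A second Fhl2 probe, at 43182667 to 43182726, was not well above background on any of the 9 arrays and carries no value here.

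Fhl1, the main FHL protein of skeletal muscle, gave 0.31, 1.35 and -0.32 in quiescent cells, -2.00, -2.11 and -2.21 in control-siRNA cells and -2.01, -2.08 and -2.12 in Cav1-siRNA cells. The quiescent arrays were spread widely, with a SD of 0.84, but the lowest of them was above the highest transfected array. Fhl1 fell by 2.56 on the log2 scale, or 5.88-fold (SE 0.35, limma adjusted p = 1.7e-04). Relative to the median of all genes the change was -2.87 (-2.88 to -2.02 under the other scalings). Its probe lies on chromosome X at 54046422 to 54046481 of mm9.

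Fhl3, a further FHL protein found in muscle, gave -3.31, -3.28 and -3.42 in quiescent cells, -3.25, -2.94 and -2.41 in control-siRNA cells and -2.92, -3.15 and -3.00 in Cav1-siRNA cells. The first control-siRNA array lay just above the quiescent arrays and the third well above them. The log2 change was 0.47 (95% interval 0.00036 to 0.95, limma adjusted p = 0.070), and relative to the median of all genes it was 0.15 (0.098 to 0.32 under the other scalings). Without the first control-siRNA array it was 0.66 (adjusted p = 0.017), past the threshold, and with normexp background correction and 75th-percentile scaling its sign turned, to -0.027. Its probe lies on chromosome 4 at 124383239 to 124383298 of mm9.

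The ratio of Fhl2 to Fhl1 signal within an array was 404-fold higher in control-siRNA than in quiescent cells, and the ratio of Fhl2 to Fhl3 was 49.5-fold higher. The ratio of Fhl1 to Fhl3 fell 8.16-fold. In each of these ratios the groups did not overlap, with the same exact permutation p of 0.1. Each says only that the members changed unequally. Fhl2 rose and Fhl1 fell, each without overlap, so the separation of their ratio follows from the values already given.

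CArG-box letters were present in promoter windows of Fhl2, which rose, and of Fhl1, which fell. RefSeq gives Fhl2 a pair of starts with a match in each window, beginning 31 bases before one start and 96 before the other. It gives Fhl1 windows at 2 starts, 1 of which holds a match, 102 bases before the start. The stretches of 130 bases before these starts are shown because the same motif stands in front of genes that moved in opposite directions. They are chr1:43163962-43164091 and chr1:43196762-43196891 on the minus strand for Fhl2, and chrX:56779553-56779682 on the plus strand for Fhl1, all of GRCm38.p6, with the matches in capitals.
Fhl2, first start: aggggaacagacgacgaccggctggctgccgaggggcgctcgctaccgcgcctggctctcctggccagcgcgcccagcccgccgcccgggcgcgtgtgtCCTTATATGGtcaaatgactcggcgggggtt
Fhl2, second start: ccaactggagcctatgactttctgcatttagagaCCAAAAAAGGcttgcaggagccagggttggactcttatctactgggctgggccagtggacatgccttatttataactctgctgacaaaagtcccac
Fhl1: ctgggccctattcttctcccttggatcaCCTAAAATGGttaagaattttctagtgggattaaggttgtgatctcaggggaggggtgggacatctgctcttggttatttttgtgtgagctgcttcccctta

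The CRP pair also split. Csrp1, an actin-bundling LIM protein of smooth muscle, gave 4.49, 4.75 and 4.01 in quiescent cells, 5.39, 5.65 and 5.53 in control-siRNA cells and 5.56, 5.67 and 5.71 in Cav1-siRNA cells. Each transfected array exceeded each quiescent array. Csrp1 rose 2.16-fold (log2 change 1.11, SE 0.19, limma adjusted p = 8.1e-04), or 0.79 above the median of all genes (0.64 to 1.19 under the other scalings). Its probe lies on chromosome 1 at 137648747 to 137648806 of mm9.

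Csrp2, which encodes CRP2, a LIM protein of vascular smooth muscle that is also a long-known stellate cell product, gave 3.90, 4.01 and 4.32 in quiescent cells, 2.33, 2.27 and 2.25 in control-siRNA cells and 1.90, 1.86 and 1.82 in Cav1-siRNA cells. The 3 groups did not overlap, with quiescent cells highest and Cav1-siRNA cells lowest. Csrp2 fell by 1.79 on the log2 scale from quiescent to control-siRNA cells, or 3.46-fold (SE 0.14, limma adjusted p = 4.6e-06). The change relative to the median of all genes was -2.11 (-2.22 to -1.46 under the other scalings). Its probe lies on chromosome 10 at 110376366 to 110376425 of mm9. Within an array the ratio of Csrp1 to Csrp2 was 7.46-fold higher in control-siRNA than in quiescent cells, again without overlap and at the exact permutation p of 0.1. With Csrp1 higher and Csrp2 lower, each without overlap, this separation too follows from their values above.

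The called changes of the members, rises and falls alike, went with the loss of hepatocyte, endothelial and Kupffer cell marker signal described above. The part of that loss in them, or in the gene lists below, was not tested. Smooth muscle and pericyte markers had a summed level of 4.92 to 9.33 on the quiescent arrays and 16.5 to 19.1 on the control-siRNA arrays. Lmod1, Des, Pln and Kcnmb1 did not pass the brightness filter, and Rgs5 was at least 67.6-fold lower in control-siRNA cells. Striated muscle markers had a summed level of 0.324 to 0.625 against 0.796 to 0.987, with Myh6, Ckm and Myl2 not passing the filter. Of the 4 measured, 2 were called higher (Tnnt2 and Tnni3), 1 lower (Actn2) and 1 not (Nppa). Actn2 had a mean log2 signal of -1.92 in quiescent cells and -7.24, near background, in control-siRNA cells. Summed mesothelial markers were 0.848 to 1.54 against 23.5 to 25.0, with 4 of 5 higher and Krt19 lower (log2 change -3.15). The part of these cell types in the changes of the members was likewise not tested.

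The slides are partly mixed with the groups. Control-siRNA array 1 shared slide 1 with all quiescent arrays, and the remaining 5 arrays were on slide 2. With slide as a block, the log2 changes from quiescent to control-siRNA cells were 0.91 for Srf, 2.87 for Mkl1, 1.33 for Mkl2, -2.45 for Fhl1, 6.15 for Fhl2, 0.09 for Fhl3, 0.98 for Csrp1 and -1.74 for Csrp2. The same 7 genes were called. Within slide 1, which gives the same sizes with 1 control-siRNA array assumed to vary like the quiescent ones, Mkl1, Fhl1, Fhl2 and Csrp2 were called. Srf (adjusted p = 0.14), Mkl2 (0.053) and Csrp1 (0.15) were not.

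**Figure D3:**
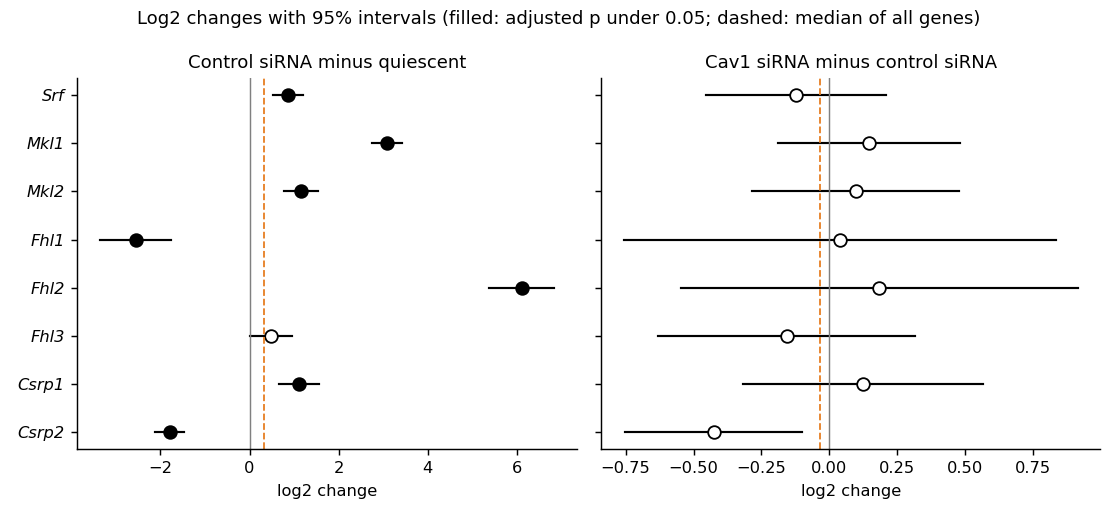
Log2 changes with 95% intervals from limma (horizontal axes) for the 8 tested genes, from quiescent to control-siRNA cells (left) and from control-siRNA to Cav1-siRNA cells (right, a narrower scale). Filled points passed an adjusted p of 0.05, and the dashed line is the median of all genes. On the left 7 of 8 points are filled and on the right none is.

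Cav1 siRNA left no member past the threshold against the control siRNA. The count was 0 of 8 genes called, beside 0% of all genes, and 1 of 8 at an unadjusted p under 0.05, beside 4.96% (1189 genes) of all genes. The groups did not overlap for Srf, Fhl2 and Csrp2, 3 of 8 genes, beside 22.6% of all genes. Csrp2 was lower on all 3 Cav1-siRNA arrays, with a log2 difference of -0.43 (limma, SE 0.14, 95% interval -0.75 to -0.10, adjusted p = 0.82). Within slide 2, where 2 control-siRNA arrays meet the 3 Cav1-siRNA arrays, and with slide as a block, the Csrp2 difference was -0.40. With array weights it was called (adjusted p = 0.019), where 656 genes of all were.

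The other 7 genes had adjusted p-values of 1.00 to 2 decimals, and their intervals give the sizes of difference that these arrays allow. For the central factor Srf the log2 difference was -0.12 (95% interval -0.45 to 0.21, -0.10 within slide 2). For the coactivators it was 0.15 (-0.19 to 0.48) for Mkl1 and 0.10 (-0.28 to 0.48) for Mkl2, or 0.04 and 0.19 within slide 2. These intervals lie inside a change of 1 on the log2 scale in either direction, as do all 8. Fhl2 differed by 0.18 (-0.55 to 0.91, 0.21 within slide 2) and Fhl1 by 0.04 (-0.76 to 0.83, 0.09 within slide 2). Fhl3 differed by -0.16 (-0.63 to 0.32, -0.35 within slide 2), and without control-siRNA array 3 the sign turned, to 0.07. Csrp1 differed by 0.12 (-0.32 to 0.56, 0.06 within slide 2), and its sign turned under both quantile scalings. The ratio of Csrp1 to Csrp2 within an array was 1.46-fold higher after Cav1 siRNA, with no overlap (exact permutation p = 0.1, adjusted 0.143). The ratio of Fhl2 to Fhl1 was 1.11-fold higher (exact permutation p = 0.1, adjusted 0.143). Its groups all but touched, the lowest Cav1-siRNA log2 ratio being 5.8562 and the highest control-siRNA one 5.8553. No share over all gene pairs was computed, and 22.6% of single genes did not overlap here. The ratios of Fhl2 to Fhl3, Fhl1 to Fhl3 and Mkl1 to Mkl2 overlapped between the groups.

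Set against quiescent cells, the Cav1-siRNA cells gave 7 of 8 genes called, beside 67.6% of all genes (40.4% higher and 27.2% lower), and no overlap for 8 of 8, beside 71.7%, with the quiescent arrays shared with the first comparison. The log2 changes were 0.74 for Srf, 3.23 for Mkl1, 1.25 for Mkl2, -2.52 for Fhl1, 6.29 for Fhl2, 1.23 for Csrp1 and -2.22 for Csrp2, all called. Fhl3 differed by 0.32 (adjusted p = 0.20). For each gene the order of the group means put the quiescent group at one end, and the transfected groups, next to each other, differed by less than the threshold.

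The genes whose profiles over the 9 arrays lay closest to each member were sought among genes known to RefSeq, as the smallest root-mean-square difference of log2 signals after centring. They were Mapk3, Plekha2 and Slc50a1 for Srf, the closest at 0.062. For Mkl1 they were Pole, Svil and Gm3383 (closest 0.083), and for Mkl2 Kctd3, Desi2 and Mrps6 (closest 0.040). Those nearest Fhl2 were Cavin3, Loxl1 and Dzip1l (closest 0.15), and those nearest Fhl1 were Ndrg1, Rab3b and Ccno (closest 0.15). Tmem268, H2-Q4 and Gm35257 were nearest Fhl3 (closest 0.11), Iqgap1, 1810055G02Rik and Tsc22d4 nearest Csrp1 (closest 0.069), and Psen2, Pttg1 and Klf9 nearest Csrp2 (closest 0.092). These are likenesses over 9 arrays of 3 groups and rest mostly on the step between quiescent and transfected cells.

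Of 7 measured relatives of the FHL and CRP genes, Fhl4 and Fhl5 were higher in control-siRNA cells, Csrp3, Crip1 and Crip2 were lower, and Crip3 and Lmcd1 were not called. These 2 higher and 3 lower stand beside 42.1% higher and 26% lower of all genes, and nothing particular to the relatives is read from them. Csrp3, the muscle LIM protein of striated muscle, gave 1.21, 1.39 and 1.38 in quiescent cells and -5.55, -6.50 and -7.07 in control-siRNA cells. All quiescent arrays were well above background and 1 of 3 control-siRNA arrays was. The fitted Csrp3 change was -7.70 on the log2 scale (SE 0.46, limma adjusted p = 6.4e-07), a size that rests partly on signals at background, beside the marker changes given above, whose part was not tested. Crip1 and Crip2, small LIM proteins related to the CRPs, fell by 2.72 and 1.69.

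Fhl4, a testis-enriched family member, gave -7.64, -6.35 and -6.91 in quiescent cells, not above background, and -2.29, -2.27 and -2.24 in control-siRNA cells, at least 6.49-fold higher. Fhl5, a testis and smooth muscle cofactor, was at least 1.34-fold higher by the same bound. After Cav1 siRNA, Crip1 gave 1.11, 1.21 and 1.16 against 2.13, 2.09 and 2.03 with the control siRNA. All 3 Cav1-siRNA arrays lay lower, a log2 difference of -0.92 (SE 0.17, 95% interval -1.32 to -0.53, limma adjusted p = 0.39). None of the 7 relatives was called in that comparison, except Crip1 with array weights (adjusted p = 0.0037), where 2.74% of all genes were. Of the 3 relatives above background on all 9 arrays, 0 were higher and 2 lower from quiescent to control-siRNA cells. Of all genes so filtered, 41.5% were higher and 28.2% lower.

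Most cytoskeletal and contractile genes long tied to SRF and the MRTFs were higher in control-siRNA cells. Of 34 measured of 36 listed, 30 were higher in control-siRNA cells and 0 lower, with a median log2 change of 2.16 against 0.32 for all genes. Of all genes 42.1% were higher and 26% lower. The list was chosen with earlier results of these data known, so its share beside that of all genes is descriptive only. Of the 32 above background on all 9 arrays 28 were higher, beside 41.5% of all genes so filtered. With slide as a block 29 of the 34 were higher, beside 31.8% of all genes, and within slide 1 21 were, beside 17.4%. The 3 with the largest changes among those above background throughout were Acta2, Tagln and Thbs1. Acta2 and Tagln are also among the activated stellate markers summed above. Acta2, smooth muscle actin and the classical mark of the activated stellate cell, gave -0.19, -0.99 and -1.66 in quiescent cells and 7.47, 7.39 and 7.40 in control-siRNA cells, a log2 change of 8.37 (SE 0.31, limma adjusted p = 3.3e-08). Its 4 tested probes ran from 0.30 to 9.07, so the size depends on the probe. The 5 tested Cald1 probes ran from -0.67 to 5.03, with 4 called higher and 1 lower, so its direction depends on the probe. Tagln, which encodes the actin-binding transgelin, rose by 5.95, and Thbs1, the secreted thrombospondin-1, by 5.61. The genes not called, named after their values were seen, were Actb (-0.18), Tln1 (0.05), Smtn (0.39) and Synm (-0.34).

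**Figure D4:**
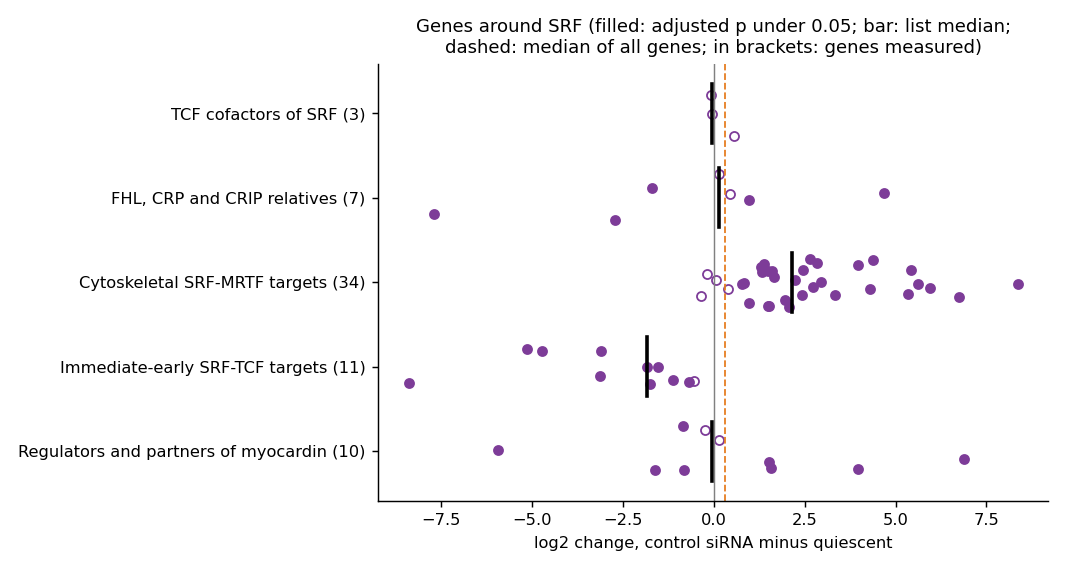
Log2 change from quiescent to control-siRNA cells (horizontal axis) for the measured genes of 5 lists around SRF. Each point is a gene, filled where it passed an adjusted p of 0.05. Black bars are list medians, and the dashed line is the median of all genes at 0.32. Cytoskeletal targets lie almost all to the right (median 2.16) and immediate-early targets to the left (median -1.84).

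Immediate-early genes, the targets SRF shares with the ternary complex factors, went the other way. Of 11 measured of 12 listed, 0 were higher and 10 lower in control-siRNA cells, with a median log2 change of -1.84, beside 26% of all genes lower. This list too was chosen with earlier results of these data known, so the share is descriptive only. With slide as a block 9 were lower, beside 20.6% of all genes, and within slide 1 6 were, beside 14.4%. Fosb and Fos, AP-1 subunits, fell by 8.39 and 5.14, and the orphan nuclear receptor Nr4a1 fell by 4.72. Fos gave 5.29, 4.72 and 4.20 in quiescent cells and -0.90, -0.16 and -0.14 in control-siRNA cells, which did not overlap. Egr1, the zinc-finger factor, fell by 1.84. The other genes called were Ier2 (-3.12), Junb (-3.10), Dusp5 (-1.76), Egr2 (-1.53), Egr3 (-1.12) and Mcl1 (-0.69), and Ier3 alone was not called, at -0.55. The 2 tested Egr3 probes ran from -1.12 to 0.08 and 1 was called lower, so its call depends on the probe.

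Of the ternary complex factors, none of Elk1 (log2 change -0.04), Elk3 (0.56, limma adjusted p = 0.052) and Elk4 (-0.08) was called. A further Elk1 probe was higher by 0.58, which was called, and 2 further Elk4 probes were called lower, down to -0.85, so the call for these depends on the probe. With the mean of the kept probes Elk4 was called lower (-0.54). Elk3 was called higher under 5 alternatives, namely normexp with the 75th percentile, median scaling, a filter on all 9 arrays, array weights and leaving out quiescent array 2, with changes of 0.56 to 0.85.

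Of 10 measured partners and regulators of myocardin (12 listed), 4 were higher and 4 lower, beside 42.1% and 26% of all genes. Prrx1, a homeodomain factor of mesenchyme, rose by 6.90 from a probe above background on 2 of 3 quiescent arrays. Its 3 tested probes ran from 2.93 to 7.93 and 2 were called higher, so the size depends on the probe. Gata6, a smooth muscle GATA factor, rose by 3.98, and Smad3, the TGF-beta effector, by 1.52. Tbx5 was called higher, but its groups overlapped (-7.17, -6.41 and -5.04 against -4.55, -5.08 and -4.25) and 1 of 3 quiescent arrays was above background, so no size is given. Mef2c, a MADS-box factor related to SRF, gave 1.47, 2.13 and 1.46 in quiescent cells and -4.46, -4.60 and -3.70 in control-siRNA cells, a fall of 5.94 (SE 0.28, limma adjusted p = 1.5e-07). Klf4, a repressor of smooth muscle genes, fell by 1.60, Pias1 by 0.84 and Mef2a by 0.83. Mef2d (0.16) and Gata4 (-0.23) were not called. The 3 tested Mef2d probes ran from -0.55 to 0.16 and 1 was called lower. Of the 8 partners and regulators above background on all 9 arrays 2 were higher and 4 lower, beside 41.5% and 28.2% of all genes so filtered.

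None of the genes in these 5 lists passed the threshold between Cav1-siRNA and control-siRNA cells, Crip1 with array weights being the exception given above. At an unadjusted p under 0.05 stood 1 gene each among the relatives, the cytoskeletal targets and the immediate-early genes, and 0 among the ternary complex factors and the myocardin partners. They were Crip1, Acta1 (0.72) and Nr4a1 (-0.63), named by that count after their values were seen. Cav1 siRNA gave a median log2 difference of 0.15 for the cytoskeletal targets and -0.21 for the immediate-early genes, against -0.035 for all genes.

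CArG-box letters were looked for on both strands of the promoter windows of GRCm38.p6. The motif is its own reverse complement, so a match on one strand is a match on the other. Of all 32851 windows 1.63% held a match, and of the 13684 tested genes with a window 1.64% did. Among the members, 3 of the 7 genes with a window (Srf, Fhl1 and Fhl2) had a match, in 4 of 13 windows. Myocd and Csrp2 had no entry in the table. In the lists, 7 of 29 cytoskeletal targets, 2 of 9 immediate-early genes (Dusp5 and Egr2) and 1 of 6 relatives (Lmcd1) had a match. None of 3 ternary complex factors or 8 myocardin partners did.

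The cytoskeletal targets with a match were Acta1, Actc1, Actg1, Cnn2, Filip1l, Myl9 and Vcl, at 73, 47, 90, 56, 62, 161 and 227 bases before the start. These 7 genes were all called higher in control-siRNA cells. So were 30 of the 34 measured genes of their list, beside 42.1% of all genes. Dusp5 and Egr2, which also hold matches, were called lower, as was Fhl1, so letters of the motif stood in front of genes that moved either way. A match is a run of letters in this window and not a measured binding site.

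**Figure D5:**
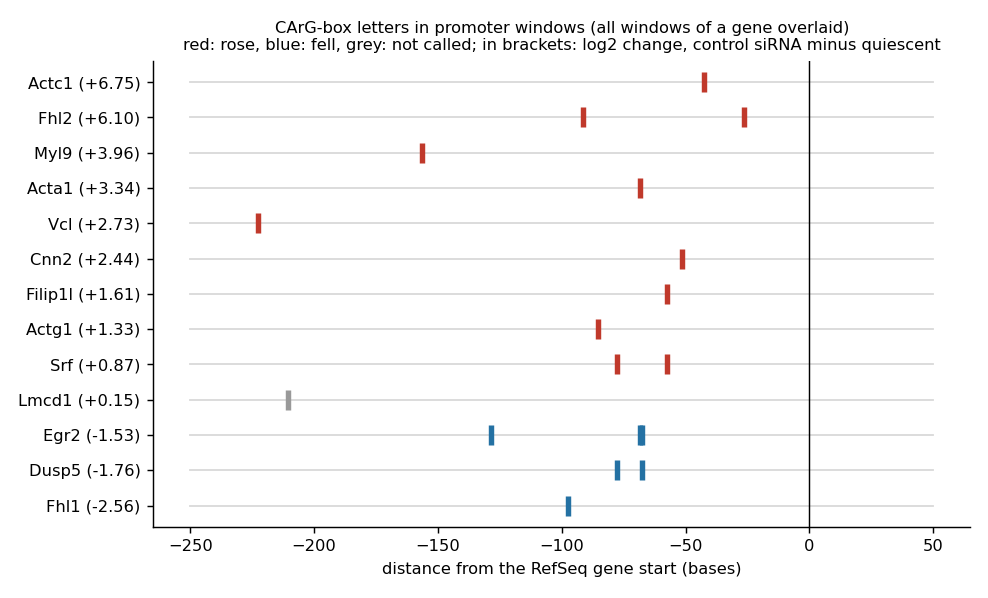
Position of each CArG-box match (marks) relative to the RefSeq gene start at 0, in bases (horizontal axis), for the members and listed genes that hold one, all windows of a gene overlaid. Red marks genes that rose from quiescent to control-siRNA cells, blue those that fell and grey 1 gene not called, with the log2 change in brackets. Matches occur in front of genes that rose, such as Fhl2 (6.10) and Srf (0.87), and of genes that fell, such as Fhl1 (-2.56).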

How the data were processed

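Per the submitters' processing notes, the authors extracted spot values with Agilent Feature Extraction (version 10.7.1.1). Per the file headers, the processed intensity they deposited is linear, background-subtracted and not scaled between arrays. A deposited table with the same intensity per probe served as an alternative.

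Log2 of the processed intensity minus the array's 75th percentile was computed here. Probes detected above background on every array of 1 or more groups numbered 36885, and 68 of them were dropped for outlier spots. The brightest probe stood for its gene, giving 23965 genes. Each member probe has 1 spot, and none was an outlier. No spot was saturated. Between 51.5 and 69.0% of probes were above background on an array, and the number of arrays limits the precision.

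Tests were two-sided, by lmFit and eBayes of limma (version 3.58.1, with R 4.3.3) on all 9 arrays with a mean per group. The code was also run on simulated signals in which few genes changed. These had no background, scaling or slide effects, so that run cannot speak to such conditions here. Named genes are all members, and of each list the 3 largest called changes in each direction above background throughout (in lists of 12 or fewer any measured gene), with bounds. Symbols were updated with RefSeq of GRCm38.p6 (32994 probes by accession), which also gave the promoter windows. Probe coordinates are mm9, per the file headers. The members and gene lists were chosen with earlier results of these data known. Replicate numbers were not taken to pair the samples, and the labels do not say whether they do. Alternatives were other background corrections, scalings, filters, probe choices, the deposited table, array weights, slide, a replicate block and leaving out each array. A further gene list is not reported here.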

Additional observations from a re-analysis of the deposited data

How the results depend on the processing

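From quiescent to control-siRNA cells, Mkl1, Fhl1, Fhl2 and Csrp2 kept their direction and their call under all 23 alternatives. Srf, Mkl2 and Csrp1 did so under 22 and were not called within slide 1, where 4 members and 7615 genes in all were called against 7 and 16328. Fhl3 turned to -0.027 with normexp and the 75th percentile (adjusted p = 0.87). It was called with normexp and quantile scaling (0.34), median scaling (0.62) and quantile scaling (0.63), and without control-siRNA array 1. Leaving out 1 array gave 7 to 8 members and 14589 to 16823 genes. The share of calls that were higher was 61.8%, but 46.2% with normexp and the 75th percentile, 47.0% without the brightness filter and 54.6% within slide 1.

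Between Cav1 and control siRNA, all genes called numbered 7 with normexp and the 75th percentile, 5 with normexp and quantile scaling, 6 with a filter on all 9 arrays, 5 with only the 2 groups in the fit, 656 with array weights (1 member, Csrp2) and 0 to 2 when an array was left out (2 without quiescent array 1). The difference turned to -0.041 (normexp, quantile) and -0.018 (quantile) for Csrp1, and, without control-siRNA array 3, to -0.013 for Fhl1 (-0.013 to 0.092 over arrays left out) and 0.074 for Fhl3 (-0.35 to 0.074).

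From quiescent to Cav1-siRNA cells, 10141 genes were called with slide as a block against 16210, and Csrp1 was not (1.03, adjusted p = 0.052). Fhl3 turned to -0.13 with normexp and the 75th percentile and to -0.26 with the slide block. It was called higher under 2 of the 22 alternatives (lowest limma adjusted p = 0.038), and its largest change was 0.57. The cause of these changes was not tested.

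After each gene's group mean was subtracted, same-numbered samples of different groups correlated at -0.11 to 0.17. Their numbers were not taken as pairs. With a replicate block, 15837 genes were called from quiescent to control-siRNA cells, 0 between the siRNAs, and no member call changed. Without the brightness filter 8 members were called, Myocd being the eighth. Dim probes limit Myocd, the second Fhl2 probe and the dimmer Mkl1 and Mkl2 probes.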
